A study of Mus musculus with 19 samples.

Results

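The 47 genes described here encode the machinery of apoptosis and necroptosis and the p53 pathway, and were taken by gene symbol from the 54532 genes of a whole-kidney bulk RNA-seq count table. They hold 14 genes of the BCL2 family, 6 caspases, 5 genes of the apoptosome and mitochondrial death proteins and 4 inhibitors of caspases. The others are 4 genes of the death receptor pathway, 4 necroptosis genes, 8 genes of p53, its targets and the GADD45 family, and 2 INK4 inhibitors. All kidneys were obstructed: 19 male mice on a C57BL/6J background, aged 8 to 9 weeks, had the left ureter tied and cut (unilateral ureteral obstruction, UUO), and the kidney was taken on day 12. Mice were wild-type (WT) or knocked out for CD5L (CD5L KO), a circulating protein made by tissue macrophages, and received a daily intraperitoneal injection of recombinant CD5L (rCD5L, 0.5 mg per mouse) or of PBS. The 4 groups were WT with PBS (n = 5), WT with rCD5L (n = 5), CD5L KO with PBS (n = 4) and CD5L KO with rCD5L (n = 5). The design asks whether loss of CD5L, and its replacement, changes gene expression in the injured kidney. No kidney without obstruction was analysed here, so levels cannot be set against an uninjured state. The sources used here tie the deletion to no single cell type. Since each library is a whole kidney, fewer cells of a type and less RNA per cell cannot be told apart.

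In apoptosis, BH3-only proteins sense stress and release the pore formers BAX and BAK from the anti-apoptotic BCL2 proteins; cytochrome c then leaves the mitochondria, binds APAF1 and activates caspase 9 and the executioner caspases. Death receptors such as FAS reach the same end through FADD and caspase 8, which also holds back necroptosis, the lytic death carried out by RIPK1, RIPK3 and MLKL. The transcription factor p53 induces many of these genes together with the cell cycle inhibitor p21 (Cdkn1a) and its own antagonist MDM2. In the kidney, tubular epithelial cells die by several of these routes after obstruction. Much of this machinery is switched by cleavage, phosphorylation or release from mitochondria, which RNA levels do not record.

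Promoters of 5 of the genes are printed to show matches to patterns for p53, NF-kB and AP-1 factors. The values of these genes are given later in every kidney. They come from RefSeq (GRCm38.p6), span 250 bases before to 50 bases after an annotated start, and run 5′ to 3′ in the direction of the gene. Casp6 is shown because it had the smallest adjusted p of all members. Its 2 overlapping NF-kB matches are 1 stretch, from -144 to -134, that matches on both strands. Capitals mark each match, on either strand, to the p53 decamer consensus, to the NF-kB pattern (GGG, any 5 bases, CC) or to TGACTCA (the AP-1 pattern). The NF-kB pattern is loose, being present in 50.8% of all promoters, so a match does not mark a known binding site.
Cdkn1a, chr17:29090729-29091028, plus strand: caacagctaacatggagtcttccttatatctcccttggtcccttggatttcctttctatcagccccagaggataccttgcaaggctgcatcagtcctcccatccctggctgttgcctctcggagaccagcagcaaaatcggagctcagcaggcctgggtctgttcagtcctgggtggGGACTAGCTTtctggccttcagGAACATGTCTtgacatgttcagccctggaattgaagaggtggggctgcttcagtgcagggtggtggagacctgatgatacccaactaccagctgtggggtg
Mdm2, chr10:117710709-117711008, minus strand: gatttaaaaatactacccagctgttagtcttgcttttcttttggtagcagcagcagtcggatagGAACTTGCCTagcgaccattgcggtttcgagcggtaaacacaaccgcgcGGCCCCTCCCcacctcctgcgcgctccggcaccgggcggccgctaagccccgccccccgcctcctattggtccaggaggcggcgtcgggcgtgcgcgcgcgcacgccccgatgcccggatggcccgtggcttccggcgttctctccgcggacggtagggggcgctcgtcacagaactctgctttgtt
Bax, chr7:45466849-45467148, minus strand: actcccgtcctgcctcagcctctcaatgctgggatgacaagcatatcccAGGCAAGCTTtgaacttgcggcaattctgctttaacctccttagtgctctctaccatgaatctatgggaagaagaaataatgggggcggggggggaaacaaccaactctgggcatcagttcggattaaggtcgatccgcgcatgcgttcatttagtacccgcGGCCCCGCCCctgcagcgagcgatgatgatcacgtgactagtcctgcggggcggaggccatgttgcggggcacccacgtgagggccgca
Fas, chr19:34290409-34290708, plus strand: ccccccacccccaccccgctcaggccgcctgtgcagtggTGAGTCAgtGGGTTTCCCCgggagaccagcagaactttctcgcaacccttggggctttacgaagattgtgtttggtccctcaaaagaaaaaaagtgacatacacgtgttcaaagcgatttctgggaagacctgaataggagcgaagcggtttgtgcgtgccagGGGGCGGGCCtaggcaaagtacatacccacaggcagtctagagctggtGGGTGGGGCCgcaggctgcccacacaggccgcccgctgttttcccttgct
Casp6, chr3:129901165-129901464, plus strand: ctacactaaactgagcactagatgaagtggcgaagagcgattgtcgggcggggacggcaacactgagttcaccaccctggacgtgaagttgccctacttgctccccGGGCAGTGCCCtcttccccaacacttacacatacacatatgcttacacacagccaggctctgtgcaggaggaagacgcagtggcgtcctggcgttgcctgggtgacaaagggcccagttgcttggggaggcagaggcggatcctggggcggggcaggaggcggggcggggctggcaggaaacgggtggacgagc
The Cdkn1a promoter, at the more upstream of its 2 annotated starts, held 2 p53 decamers within 13 bases of each other, a pair found in 24 of 32851 promoters of this length (0.0731%). Mdm2 and Bax each held 1 decamer, at positions -186 to -177 and -201 to -192 from the start. At least 1 decamer was present in 9 of the 59 promoters that RefSeq lists for 43 of the 47 genes, and in 8.36% of all promoters. Fas held the AP-1 letters at positions -211 to -205, just before an NF-kB match, and was the only one of the 59 promoters with TGACTCA (5.2% of all). The NF-kB pattern was present in 43 of the 59 and in 50.8% of all. The interferon response pattern (GAAA, any 2 bases, GAAA) was found in 2 of the 59, those of Cflar and Ripk1, against 3.44% of all. These are matches of letters only.

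The total count per kidney lay between 17917491 and 23847090. Cd5l, the deleted gene, had 0 counts in each of the 9 CD5L KO kidneys and 3 to 15 counts in each of the 10 WT kidneys. A pair of kidneys of the CD5L KO group given rCD5L stood apart from the other 17. In replicate 4, the summed level of 8 proximal tubule markers was 12486 CPM (counts scaled to library size with TMM factors), against at most 2644 CPM in the other 18 kidneys, that highest value being replicate 3, while its 5 injured tubule markers summed to 9378 CPM and its 6 macrophage markers to 641 CPM, the lowest of all 19. All of these markers were detected in every kidney. Spp1, at 8761 CPM or more, made up most of the injured tubule sum in each of them. Estimates for single genes that rest on the CD5L KO group given rCD5L are therefore mostly followed by the value without replicates 3 and 4.

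Of the 47 genes, 46 had enough counts to be tested in each comparison. Hrk, a BH3-only gene known mostly from neurons, measured at most 0.345 CPM in any kidney and was not tested. Levels per gene length (mean FPKM over all 19 kidneys) spanned from 0.0225 for Hrk to 78.0 for Mcl1, a short-lived anti-apoptotic protein, with a median of 9.75 FPKM over the 46 tested genes against 3.68 FPKM over all tested genes. Cycs (cytochrome c) followed at 37.5, Gadd45g at 32.4 and Bax at 27.3 FPKM. The lowest of the tested genes were Fasl, the death ligand carried by cytotoxic lymphocytes, at 0.393, Diablo at 1.13, Cdkn2a at 1.95 and Bcl2 at 1.96 FPKM. Among the BCL2 family the order by mean FPKM was Mcl1, Bax, Bcl2l1, Pmaip1 and then Bad. In WT kidneys given PBS, Mcl1 at 78.4 ± 2.41 FPKM (SD, n = 5) and Bax at 28.2 ± 1.50 FPKM stood clear of the next, while Bcl2l1 at 22.4 ± 1.60 and Pmaip1 at 22.5 ± 1.73 FPKM differed by less than their SD, as did Cycs at 32.7 ± 6.20 and Gadd45g at 29.6 ± 3.09 FPKM. Among the necroptosis genes Ripk1, Zbp1, Ripk3 and Mlkl lay between 3.59 and 5.19 FPKM.

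**Figure D1:**
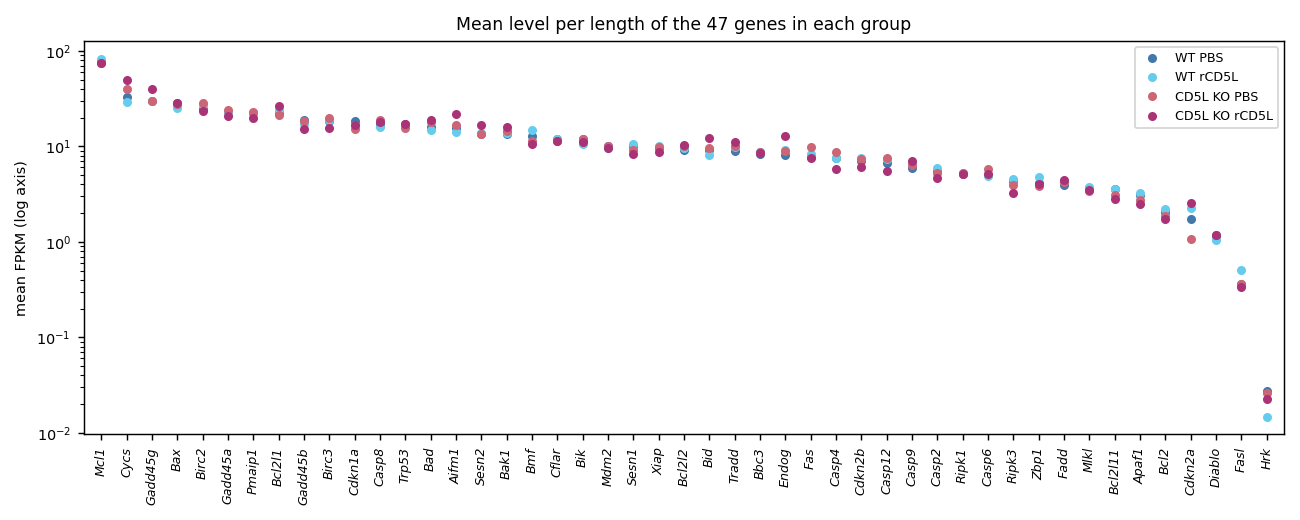
Mean level per gene length (FPKM, logarithmic axis) of each of the 47 genes, ordered by its level in WT kidneys given PBS, with 1 point for each of the 4 groups. The groups lie close together for most genes, and Mcl1 is highest and Hrk lowest in all of them.

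No member passed an adjusted p of 0.05 in any comparison (edgeR quasi-likelihood test, Benjamini-Hochberg adjustment over all genes tested). For genotype under PBS, that is CD5L KO against WT, 0 of 46 were called, against 10.5% of the 17579 genes tested, 5.13% of them higher and 5.4% lower in CD5L KO. In the same comparison 10 of 46 (21.7%) had an unadjusted p under 0.05, against a background of 26.6% of all genes, and in 1 of 46 the 2 groups did not overlap, against 14.1%. DESeq2 called 1 of 45 members there, Casp6, against 18.1% of the 14508 genes it tested. The median absolute log2 fold change of the members was 0.11, against 0.15 over all genes, and their median log2 fold change was 0.034 against -0.0046.

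The other comparisons gave no called gene at all by edgeR. CD5L KO against WT, both given rCD5L, had 0 of 46 members called (0% of 17360 genes), 6 of 46 (13%) with an unadjusted p under 0.05 against 17.8% of all genes, and 4 without overlap (8.7% against 7.38%). For rCD5L against PBS in CD5L KO kidneys the counts were 0 of 46 called (0% of 17467 genes), 2 with an unadjusted p under 0.05 (4.35% against 2.87%) and 2 without overlap (4.35% against 2.34%). For rCD5L against PBS in WT kidneys they were 0 of 46 called (0% of 17455 genes), 7 with an unadjusted p under 0.05 (15.2% against 16%) and 5 without overlap (10.9% against 3.58%). The interaction, which asks whether the response to rCD5L differed between genotypes, had 0 of 46 called (0% of 18454 genes) and 2 with an unadjusted p under 0.05 (4.35% against 6.25%). DESeq2 called 150, 10, 542 and 0 genes in these 4 fits in the order given, and 0 members in each. The comparisons share groups, so their counts are not independent of each other.

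The precision of these estimates differed between comparisons. The 95% interval of the log2 fold change lay within -1 to 1 for 45 of 46 members between genotypes given PBS and for 44 of 46 between rCD5L and PBS in WT, with a median distance from the estimate to the end of the interval of 0.18 and 0.16. It lay within these bounds for 39 of 46 in each of the 2 comparisons that rest on the CD5L KO group given rCD5L, with a median distance of 0.35 between genotypes and 0.41 between treatments. For most members a change of 2-fold or more was thus outside the interval. Changes smaller than the distance from an estimate to the end of its interval could not be told from 0 here. Bcl2, Bak1, Endog, Ripk1, Cdkn1a and Gadd45a, like others named beside their values, share exon bases with a gene on the opposite strand, and their counts are uncertain to that extent. Ripk1 also shares 511 exon bases with the pseudogene Gm17084 on its own strand, which strand cannot separate.

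**Figure D2:**
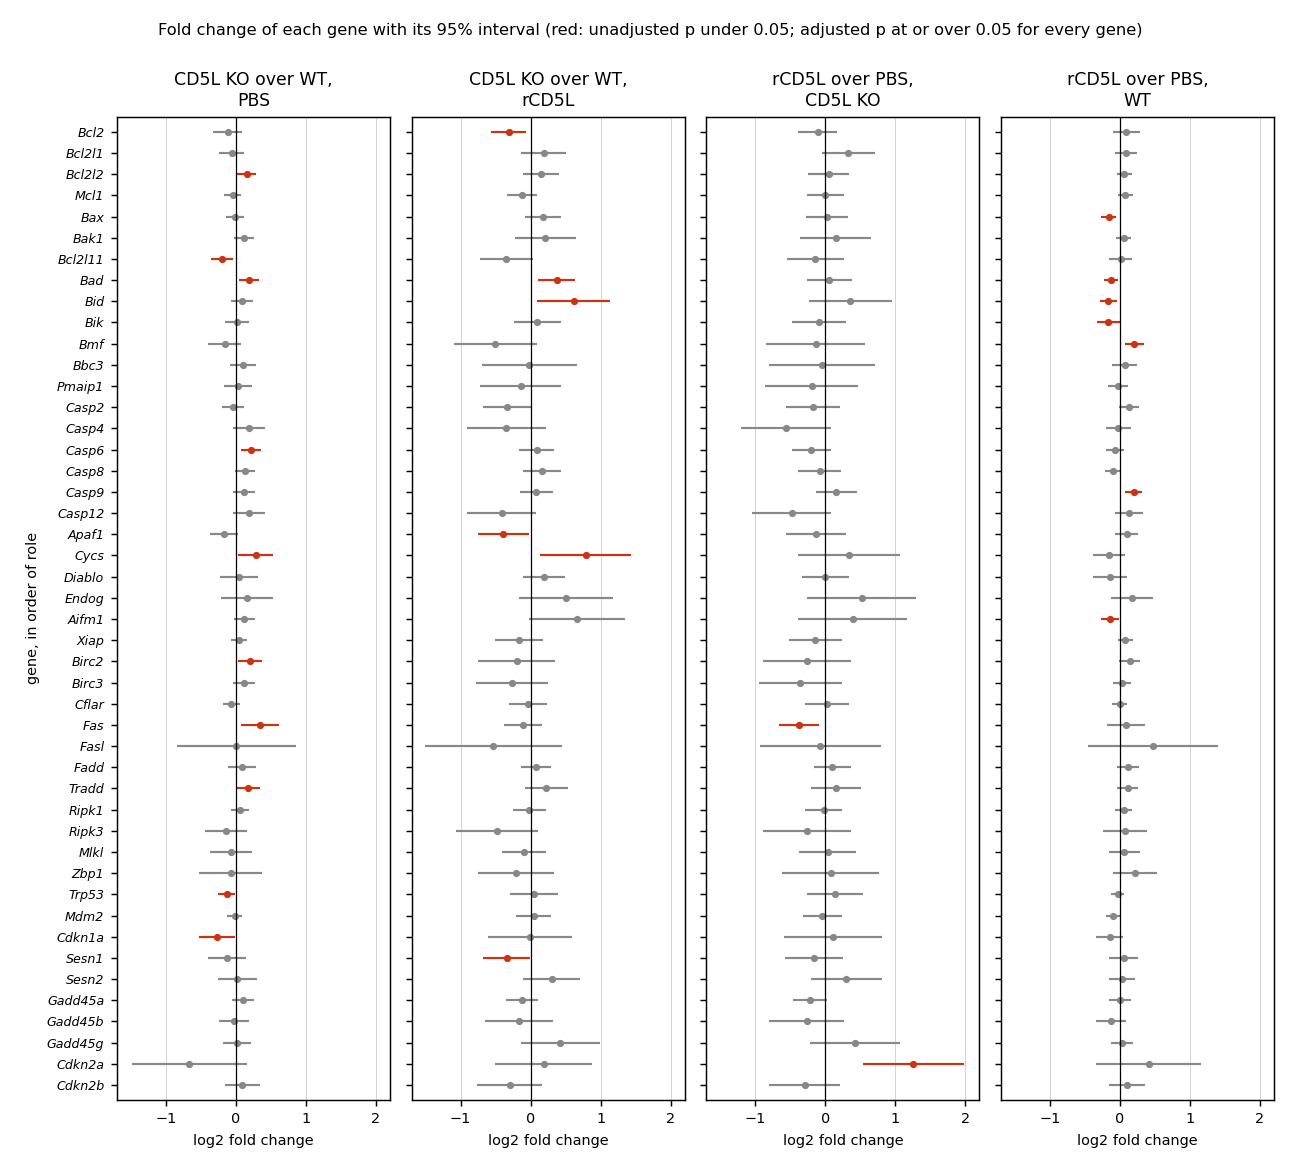
Log2 fold change of the 46 tested genes (points) with the 95% interval (lines) in the 4 pairwise comparisons, genes in order of role. Red marks an unadjusted p under 0.05 (10, 6, 2 and 7 genes from left to right); no gene had an adjusted p under 0.05, and intervals are widest where the CD5L KO group given rCD5L enters.

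Among the death receptor genes, Fas, the receptor that recruits FADD, had the largest difference of any member between the genotypes under PBS, among those with an unadjusted p under 0.05. Fas measured 22.7, 15.7, 14.6, 14.1 and 18.6 CPM in the WT kidneys and 21.7, 22.9, 21.7 and 21.2 CPM in the CD5L KO kidneys given PBS. With rCD5L, Fas measured 18.6, 20.5, 15.6, 16.9 and 18.4 CPM in WT and 19.1, 16.4, 13.7, 15.3 and 19.03 CPM in CD5L KO kidneys. In the PBS groups, 1 WT kidney reached the level of the 4 CD5L KO kidneys and the other 4 lay below them. With PBS, the log2 fold change of CD5L KO over WT was 0.35 (95% interval 0.068 to 0.62, adjusted p = 0.106 by edgeR). Without WT replicate 1, the kidney that reached the CD5L KO level, it was 0.47 and passed with an adjusted p of 0.0145, in a range of 0.0145 to 0.286 over 18 alternatives. Leaving out the overlapping kidney moves the groups apart, so this pass adds no support for a difference.

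In CD5L KO mice, all 5 kidneys given rCD5L had less Fas than all 4 given PBS, with a log2 fold change of -0.38 (-0.66 to -0.090, adjusted p = 0.897 by edgeR). Leaving out replicates 3 and 4 of the rCD5L group gave -0.26 (-0.46 to -0.065, adjusted p = 0.419). In WT mice the same contrast was 0.084 (-0.18 to 0.35), and the groups overlapped. CD5L KO over WT with rCD5L was -0.11 (-0.39 to 0.17), or 0.0023 (-0.22 to 0.22) without the same 2 kidneys. Fas had the smallest p of any member in the interaction, at a log2 difference of -0.44 (-0.82 to -0.062, adjusted p = 0.731). Without the same 2 kidneys it was -0.34 (-0.70 to 0.020), an interval that includes 0. The interaction then had 0 of 46 members called, against 0% of 18724 genes. The 2 comparisons within CD5L KO and between genotypes share the CD5L KO kidneys given PBS, which were close to each other at 21.9 ± 0.691 CPM (SD, n = 4).

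Fasl, the ligand of FAS, was near the floor of the assay at 0.278 to 2.39 CPM over the 19 kidneys, and its interval between genotypes given PBS ran from -0.85 to 0.85. The adaptors Fadd and Tradd had log2 fold changes of 0.088 and 0.17 between genotypes given PBS (adjusted p = 0.585 and 0.184 by edgeR). All 4 genes of this pathway had estimates above 0 for CD5L KO with PBS and for rCD5L in WT, and 2 of 4 for rCD5L in CD5L KO, or 3 of 4 without replicates 3 and 4, none past the test. Faddos, an antisense gene, shares 239 exon bases with Fadd, and reads of the pair cannot be told apart without strand.

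Among the caspases, Casp6, an executioner caspase, had the smallest adjusted p of any member. Casp6 measured 33.6, 34.9, 33.1, 37.2 and 33.5 CPM in the WT kidneys and 43.7, 41.9, 37.4 and 37.6 CPM in the CD5L KO kidneys given PBS. With rCD5L, Casp6 measured 34.6, 33.02, 30.6, 34.5 and 30.1 CPM in WT and 40.99, 37.2, 28.8, 30.1 and 36.2 CPM in CD5L KO kidneys. With PBS, every CD5L KO value exceeded every WT value, the only member of which this was true, although the nearest pair were 37.2 and 37.4 CPM. CD5L KO over WT gave a log2 fold change of 0.22 (0.071 to 0.36, adjusted p = 0.0593 by edgeR). It passed with DESeq2 and with an offset for gene length, over a range of adjusted p from 0.0281 to 0.348 in 18 alternatives. With rCD5L the genotypes overlapped, at a log2 fold change of 0.086, or 0.22 (0.057 to 0.38, adjusted p = 0.114) without replicates 3 and 4.

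Casp8, the initiator downstream of FADD that also cleaves RIPK1 and RIPK3, was in the same direction with PBS. Casp8 measured 62.2, 63.2, 56.3, 62.8 and 60.7 CPM in the WT kidneys and 73.5, 59.4, 68.1 and 67.7 CPM in the CD5L KO kidneys given PBS. With rCD5L, Casp8 measured 55.9, 59.9, 54.4, 59.01 and 51.7 CPM in WT and 70.6, 62.9, 46.6, 64.8 and 70.01 CPM in CD5L KO kidneys. The groups overlapped in every comparison. The log2 fold change of CD5L KO over WT was 0.13 with PBS (-0.012 to 0.27, adjusted p = 0.226) and 0.16 with rCD5L (-0.10 to 0.43, adjusted p = 0.468 by edgeR). Without replicates 3 and 4 of the CD5L KO group given rCD5L, of which replicate 3 held the lowest value of all kidneys, the second became 0.26 (0.12 to 0.41) and passed at an adjusted p of 0.0482, within a range of 0.0482 to 0.652 over 20 alternatives. These 2 kidneys were left out after their values were seen, and 3.58% of all genes tested passed in that fit. In CD5L KO mice, rCD5L against PBS gave -0.079 (-0.39 to 0.23), and 0.022 (-0.16 to 0.20) without them.

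Casp9, the initiator activated on the apoptosome, had the smallest p of any member for rCD5L in WT mice. Casp9 measured 38.6, 34.9, 41.2, 34.9 and 37.96 CPM in the WT kidneys and 43.4, 40.4, 36.4 and 43.4 CPM in the CD5L KO kidneys given PBS. With rCD5L, Casp9 measured 41.5, 43.4, 43.2, 41.5 and 43.1 CPM in WT and 38.9, 42.995, 54.97, 48.9 and 39.9 CPM in CD5L KO kidneys. Within WT, every value under rCD5L exceeded every value under PBS, although the nearest pair were 41.5 and 41.2 CPM. The response to rCD5L was a log2 fold change of 0.20 (0.073 to 0.32, adjusted p = 0.132 by edgeR), and the adjusted p ranged from 0.0621 to 0.9998 over 19 alternatives. In CD5L KO mice it was 0.16 (-0.14 to 0.45) with all kidneys and -0.0045 (-0.19 to 0.18) without replicates 3 and 4. Cela2a and Ctrc, pancreatic protease genes on the opposite strand, each share 94 exon bases with Casp9.

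Casp12, a caspase of the endoplasmic reticulum, had the second smallest p of the members in the interaction. Casp12 measured 36.9, 35.2, 26.5, 29.7 and 29.8 CPM in the WT kidneys and 42.7, 34.8, 34.4 and 32.7 CPM in the CD5L KO kidneys given PBS. With rCD5L, Casp12 measured 33.97, 35.2, 33.4, 38.5 and 29.9 CPM in WT and 32.1, 36.1, 20.5, 12.5 and 27.2 CPM in CD5L KO kidneys. The low values were those of replicates 3 and 4 of CD5L KO given rCD5L, 20.5 and 12.5 CPM. The interaction was -0.59 (-1.15 to -0.024, adjusted p = 0.731 by edgeR) with them and -0.30 (-0.63 to 0.034) without them. Of the remaining caspases, Casp2, which responds to DNA damage, and Casp4, the caspase that senses bacterial lipopolysaccharide, had log2 fold changes of -0.038 and 0.19 between genotypes given PBS and -0.18 and -0.56 for rCD5L in CD5L KO. Without replicates 3 and 4 the latter were 0.0081 and -0.21, so that of Casp2 turned. With rCD5L, Casp2 was lower in all 5 CD5L KO than in all 5 WT kidneys (-0.34, -0.68 to 0.0080, adjusted p = 0.287), and -0.15 without the 2 kidneys.

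Of the mitochondrial proteins and the apoptosome, Cycs was the highest per gene length. Cycs measured 122, 130.3, 181, 117 and 128 CPM in the WT kidneys and 145, 183, 174 and 162 CPM in the CD5L KO kidneys given PBS. With rCD5L, Cycs measured 122, 140.1, 109, 109 and 121 CPM in WT and 153, 138, 166, 419 and 153 CPM in CD5L KO kidneys. A single kidney, replicate 4 of CD5L KO given rCD5L, measured 419 CPM, against 183 CPM in the next highest. CD5L KO over WT with rCD5L was 0.78 (0.13 to 1.44, adjusted p = 0.259 by edgeR) with replicates 3 and 4 and 0.29 (0.12 to 0.46, adjusted p = 0.0598) without them. With PBS, which does not involve these kidneys, it was 0.28 (0.032 to 0.53, adjusted p = 0.140). WT replicate 3 given PBS, at 181 CPM, lay within the CD5L KO range. Without it Cycs passed at an adjusted p of 0.00671, the only one of 18 alternatives in which it did, and the others gave 0.0677 to 0.755. As for Fas, the kidney left out was one that overlapped, so the pass adds no support.

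Aifm1, the mitochondrial flavoprotein that can cleave off to the nucleus, ran from 65.7 to 90.02 CPM in 17 kidneys and was 68.3 and 231 CPM in replicates 3 and 4. Endog, a mitochondrial nuclease, measured 23.4 and 27.6 CPM in these 2 kidneys against 8.46 to 16.4 CPM in the others. Apaf1, the scaffold of the apoptosome, had the lowest values in these 2 kidneys. All 5 CD5L KO kidneys given rCD5L had less Apaf1 than all 5 WT kidneys given rCD5L, at 27.3 ± 6.99 against 35.7 ± 1.71 CPM (SD, n = 5 each). This was a log2 fold change of -0.39 (adjusted p = 0.267 by edgeR), or -0.18 (-0.33 to -0.039, adjusted p = 0.134) without the 2 kidneys. Diablo, which releases caspases from XIAP, lay between 6.59 and 10.3 CPM in all 19 kidneys. It shares 1193 exon bases with Gm49027 on the same strand and 1326 with B3gnt4 on the opposite strand, so its reads may be split among them.

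Of the inhibitors of caspases, Xiap, Birc2, Birc3 and Cflar (the brake on caspase 8), Birc2 had the highest mean per gene length at 25.8 FPKM. Birc2, which ubiquitinates RIPK1, had a log2 fold change of 0.20 between genotypes given PBS (0.024 to 0.38, adjusted p = 0.136 by edgeR). Birc3 and Xiap had 0.11 and 0.049, and Cflar -0.067. In replicates 3 and 4 of CD5L KO given rCD5L, Birc2 measured 74.3 and 72.4 CPM, below the 119 to 191 CPM of the other 17 kidneys, and Birc3 81.9 and 41.7 CPM, below 104 to 136 CPM. All 4 inhibitors had negative estimates for CD5L KO over WT with rCD5L, from -0.27 to -0.034. Without these 2 kidneys Birc2 was 0.17 (0.0100 to 0.33), Birc3 0.039 and Xiap 0.011, so all 3 turned, and Cflar was -0.0069.

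**Figure D3:**
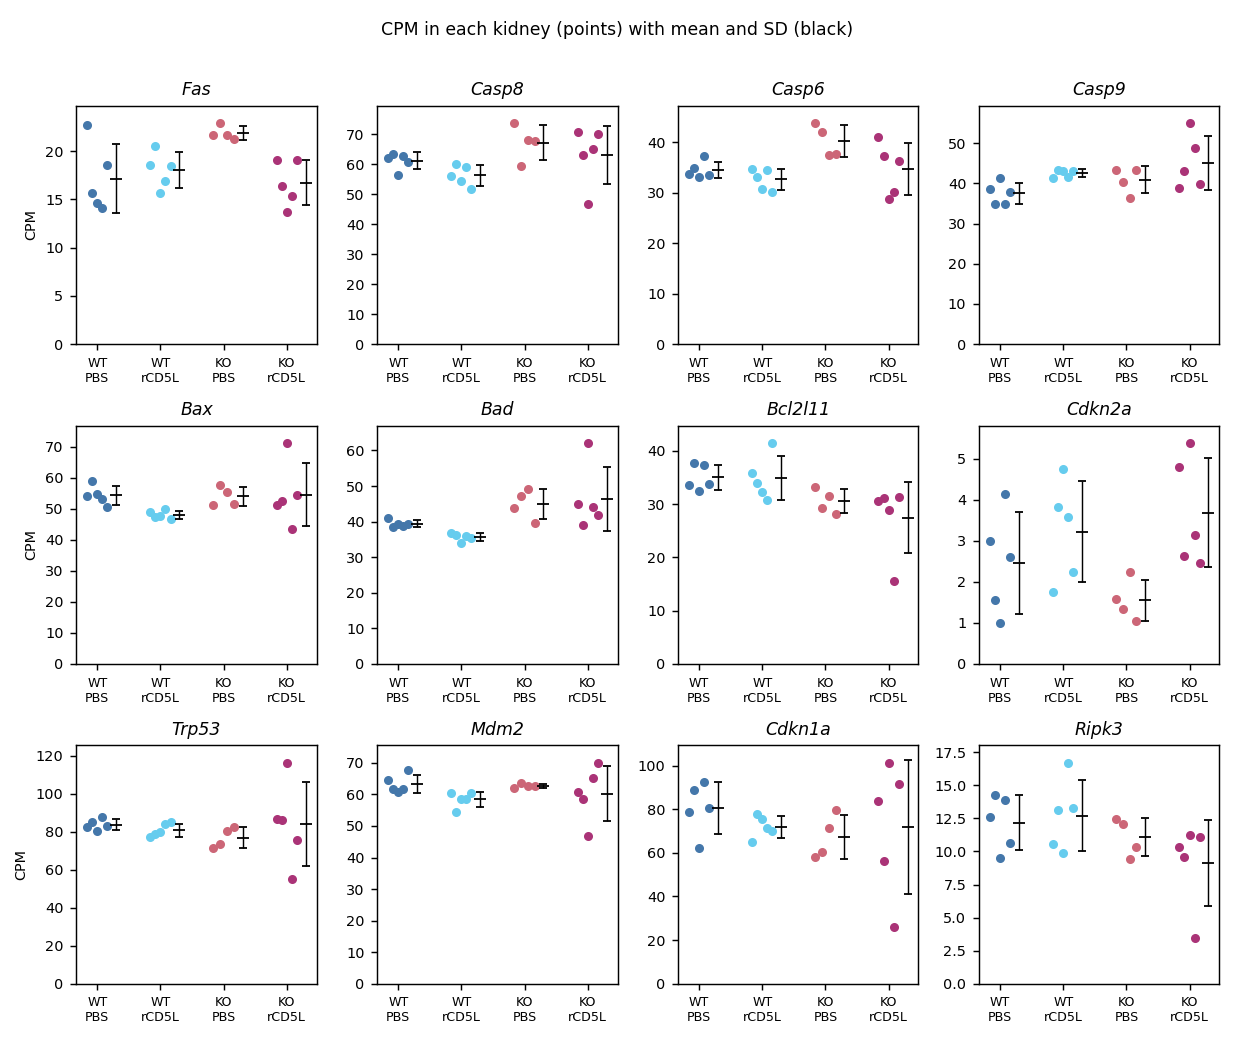
CPM of 12 of the genes in each of the 19 kidneys (points, 1 per mouse) by group, with the mean and SD of the group in black; every axis starts at 0. For Fas the 4 CD5L KO kidneys given PBS lie between 21.2 and 22.9 CPM, above all 5 CD5L KO kidneys given rCD5L, and for Bax, Bad, Casp9 and Casp6 the gaps between groups are small against the level.

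In the BCL2 family, Bax, Bad, Bid and Bik had negative estimates for rCD5L in WT and Bmf a positive one, each with an unadjusted p under 0.05 and none past the adjusted test. Bax forms the mitochondrial pore. Bax measured 54.03, 58.9, 54.8, 53.1 and 50.6 CPM in the WT kidneys and 51.3, 57.6, 55.4 and 51.5 CPM in the CD5L KO kidneys given PBS. With rCD5L, Bax measured 48.8, 47.2, 47.6, 49.9 and 46.5 CPM in WT and 51.1, 52.6, 71.1, 43.3 and 54.5 CPM in CD5L KO kidneys. Within WT, every value under rCD5L was below every value under PBS, with the nearest pair at 49.9 and 50.6 CPM. Expressed as a log2 fold change this was -0.16 (-0.27 to -0.058, adjusted p = 0.140 by edgeR, in a range of 0.0565 to 0.9998 over 19 alternatives). Between genotypes given PBS it was -0.014 (-0.14 to 0.11), and in CD5L KO mice rCD5L gave 0.026 (-0.28 to 0.33), or -0.027 (-0.18 to 0.13) without replicates 3 and 4. Gm45808, a gene on the same strand, shares 192 exon bases with Bax. Bak1, the second pore former, had log2 fold changes of 0.11 between genotypes given PBS and 0.052 for rCD5L in WT.

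Bad, a BH3-only protein held in check by growth factor signals, was higher in CD5L KO than in WT under both treatments by estimate. Bad measured 41.1, 38.5, 39.3, 38.8 and 39.3 CPM in the WT kidneys and 43.9, 47.1, 49.3 and 39.6 CPM in the CD5L KO kidneys given PBS. With rCD5L, Bad measured 36.9, 36.3, 34.1, 35.9 and 35.5 CPM in WT and 44.95, 39.03, 62.04, 44.1 and 41.9 CPM in CD5L KO kidneys. With rCD5L every CD5L KO value exceeded every WT value, and with PBS 1 CD5L KO kidney lay within the WT range. The log2 fold change between genotypes was 0.19 with PBS (0.040 to 0.33, adjusted p = 0.0976) and 0.37 with rCD5L (0.11 to 0.64, adjusted p = 0.259 by edgeR). Without CD5L KO replicate 4 given PBS, the kidney within the WT range, the first passed at 0.25 with an adjusted p of 0.0324, the lowest in a range up to 0.542 over 18 alternatives. That pass follows from leaving out the overlapping kidney and adds no support. Without replicates 3 and 4 of the group given rCD5L the second was 0.22 (0.083 to 0.36, adjusted p = 0.0708). In WT mice all 5 kidneys given rCD5L had less Bad than all 5 given PBS (-0.13, -0.23 to -0.026, adjusted p = 0.208). The interval in CD5L KO mice ran from -0.26 to 0.38 around 0.059, and from -0.29 to 0.10 around -0.093 without replicates 3 and 4. Gpr137, on the opposite strand, shares 524 exon bases with Bad.

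Bid, the BH3-only protein that caspase 8 cleaves to link death receptors to mitochondria, followed Bad in WT. Bid measured 36.6, 42.4, 40.01, 36.8 and 40.7 CPM in the WT kidneys and 39.03, 38.3, 44.4 and 45.8 CPM in the CD5L KO kidneys given PBS. With rCD5L, Bid measured 33.9, 35.8, 35.9, 33.8 and 33.6 CPM in WT and 35.3, 40.8, 44.4, 93.6 and 50.5 CPM in CD5L KO kidneys. In WT mice the rCD5L kidneys all lay below the PBS kidneys (-0.17, -0.29 to -0.050, adjusted p = 0.163 by edgeR). Between genotypes given rCD5L the estimate was 0.62 (0.10 to 1.14, adjusted p = 0.259) with the kidney at 93.6 CPM, and 0.28 (0.070 to 0.48, adjusted p = 0.119) without replicates 3 and 4. In the interaction Bid had the third smallest p among members (0.54, adjusted p = 0.731), which became 0.19 (-0.064 to 0.45) without them. Bcl2l13, on the opposite strand, shares 628 exon bases with Bid.

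Bcl2l11, which encodes BIM, had the second smallest p between genotypes given PBS with a lower estimate in CD5L KO. Bcl2l11 measured 33.6, 37.8, 32.5, 37.3 and 33.8 CPM in the WT kidneys and 33.3, 29.3, 31.5 and 28.1 CPM in the CD5L KO kidneys given PBS. With rCD5L, Bcl2l11 measured 35.8, 33.9, 32.4, 30.7 and 41.4 CPM in WT and 30.5, 31.1, 28.9, 15.5 and 31.3 CPM in CD5L KO kidneys. Of the 4 CD5L KO kidneys given PBS, 3 lay below every WT kidney given PBS. The log2 fold change was -0.20 (-0.36 to -0.045, adjusted p = 0.0960 by edgeR), and -0.35 (-0.72 to 0.027) with rCD5L, where 1 kidney measured 15.5 CPM. Without replicates 3 and 4 the latter was -0.18 (-0.37 to 0.013).

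Bmf, a BH3-only protein tied to the cytoskeleton, had the third smallest p for rCD5L in WT. Bmf measured 74.1, 83.5, 90.8, 87.7 and 79.9 CPM in the WT kidneys and 84.8, 70.9, 85.4 and 57.1 CPM in the CD5L KO kidneys given PBS. With rCD5L, Bmf measured 104, 85.5, 95.9, 93.97 and 94.9 CPM in WT and 75.7, 73.9, 96.6, 22.9 and 67.4 CPM in CD5L KO kidneys. The WT groups overlapped, and the log2 fold change was 0.20 (0.067 to 0.34, adjusted p = 0.149 by edgeR). CD5L KO over WT with rCD5L was -0.50 (-1.10 to 0.092, adjusted p = 0.338), with 22.9 CPM in replicate 4 and 96.6 CPM in replicate 3. Without both kidneys it was -0.40 (-0.55 to -0.25) and passed at an adjusted p of 0.0200, in a fit that called 3.58% of 18012 genes. Both were left out after their values were seen, and replicate 3 was the CD5L KO kidney within the WT range. The 3 remaining CD5L KO kidneys, at 75.7, 73.9 and 67.4 CPM, all lay below the 85.5 to 104 CPM of the 5 WT kidneys. That separation follows from leaving out replicate 3.

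Among the BH3-only genes that p53 induces, Bbc3 (PUMA) had log2 fold changes of 0.10 between genotypes given PBS, -0.049 for rCD5L in CD5L KO and 0.068 for rCD5L in WT. Pmaip1 (NOXA) had 0.024, -0.19 and -0.024 in the same order. Without replicates 3 and 4, rCD5L in CD5L KO gave 0.013 for Bbc3 and 0.17 (-0.10 to 0.44) for Pmaip1, so both turned. Bik, of the endoplasmic reticulum, had -0.17 for rCD5L in WT (-0.33 to -0.0071, adjusted p = 0.290 by edgeR). For rCD5L in WT, the 7 tested BH3-only genes split into 3 estimates above and 4 below 0.

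Of the anti-apoptotic members, Bcl2 had the second smallest p between genotypes given rCD5L. Bcl2 measured 20.4, 25.2, 25.6, 24.5 and 18.7 CPM in the WT kidneys and 21.8, 21.3, 21.4 and 20.3 CPM in the CD5L KO kidneys given PBS. With rCD5L, Bcl2 measured 25.96, 24.5, 23.3, 23.7 and 23.1 CPM in WT and 22.1, 22.4, 16.4, 17.4 and 18.9 CPM in CD5L KO kidneys. All 5 CD5L KO kidneys given rCD5L lay below all 5 WT kidneys given rCD5L, the nearest pair being 22.4 and 23.1 CPM. The log2 fold change was -0.31 (-0.56 to -0.065, adjusted p = 0.259 by edgeR), or -0.20 (-0.38 to -0.021, adjusted p = 0.186) without replicates 3 and 4. Between genotypes given PBS it was -0.12 (-0.33 to 0.090). Mcl1 and Bcl2l1 (BCL-XL) had -0.047 and -0.062 there, and Bcl2l2 (BCL-W) 0.15 (0.020 to 0.28, adjusted p = 0.131). Gm20521, on the same strand, shares 594 exon bases with Bcl2l2. All 4 anti-apoptotic genes had estimates above 0 for rCD5L in WT, from 0.059 to 0.090, none past the test.

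None of the 4 necroptosis genes passed in any comparison, and the intervals of Ripk3 and Zbp1 were wide. Ripk1 encodes the kinase that joins death receptor signalling to necroptosis. Ripk1 measured 52.3, 51.7, 49.3, 49.03 and 57.2 CPM in the WT kidneys and 52.9, 54.3, 51.8 and 57.6 CPM in the CD5L KO kidneys given PBS. With rCD5L, Ripk1 measured 49.1, 53.98, 54.1, 57.7 and 51.5 CPM in WT and 51.9, 54.4, 41.9, 57.7 and 57.5 CPM in CD5L KO kidneys. Groups overlapped in each comparison, and the log2 fold changes were 0.055 between genotypes given PBS (-0.076 to 0.19), -0.017 given rCD5L (-0.26 to 0.22), -0.024 for rCD5L in CD5L KO (-0.29 to 0.24) and 0.051 for rCD5L in WT (-0.072 to 0.17). Leaving out replicates 3 and 4 gave 0.026 between genotypes given rCD5L and 0.020 for rCD5L in CD5L KO, so both turned. The smallest adjusted p of the 4 with all kidneys was 0.613 by edgeR.

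Ripk3, the kinase that phosphorylates MLKL, was lower and noisier in count. Ripk3 measured 12.6, 14.3, 9.53, 13.9 and 10.7 CPM in the WT kidneys and 12.5, 12.04, 9.43 and 10.3 CPM in the CD5L KO kidneys given PBS. With rCD5L, Ripk3 measured 10.5, 13.2, 9.87, 16.7 and 13.3 CPM in WT and 10.3, 9.61, 11.2, 3.44 and 11.1 CPM in CD5L KO kidneys. A single kidney, replicate 4 of CD5L KO given rCD5L, measured only 3.44 CPM. All other kidneys lay between 9.43 and 16.7 CPM. The log2 fold changes between genotypes were -0.14 with PBS (-0.44 to 0.16, adjusted p = 0.556) and -0.48 with rCD5L (-1.06 to 0.11, adjusted p = 0.352 by edgeR), the latter -0.31 (-0.65 to 0.036) without replicates 3 and 4. For rCD5L they were -0.26 in CD5L KO (-0.90 to 0.37), or -0.093 (-0.39 to 0.21) without those kidneys, and 0.072 in WT (-0.24 to 0.39).

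Mlkl encodes the protein that ruptures the membrane in necroptosis. Mlkl measured 10.6, 9.52, 8.86, 11.99 and 9.97 CPM in the WT kidneys and 10.8, 7.87, 8.57 and 11.8 CPM in the CD5L KO kidneys given PBS. With rCD5L, Mlkl measured 9.85, 11.4, 9.62, 11.7 and 9.94 CPM in WT and 10.2, 10.1, 10.5, 7.03 and 11.5 CPM in CD5L KO kidneys. The groups overlapped throughout, with log2 fold changes from -0.092 to 0.058 over the 4 comparisons. Mlkl without replicates 3 and 4 was 0.0075 between genotypes given rCD5L and 0.13 for rCD5L in CD5L KO. Zbp1, a sensor of Z-form nucleic acids that engages RIPK3 and is induced by interferon, spread widely within groups. Zbp1 measured 20.1, 24.8, 15.2, 14.8 and 13.3 CPM in the WT kidneys and 24.4, 13.6, 13.6 and 15.6 CPM in the CD5L KO kidneys given PBS. With rCD5L, Zbp1 measured 20.5, 18.9, 18.1, 23.7 and 20.2 CPM in WT and 17.9, 18.3, 23.3, 6.81 and 21.6 CPM in CD5L KO kidneys. The interval of the genotype difference given PBS ran from -0.53 to 0.38 around -0.077, and that of rCD5L in WT from -0.10 to 0.52 around 0.21. Given rCD5L the genotype difference was -0.21 (-0.75 to 0.33), or -0.084 (-0.31 to 0.14) without replicates 3 and 4.

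Among p53, its targets and the GADD45 family, 2 genes had an unadjusted p under 0.05 between genotypes given PBS. Both, Trp53 and Cdkn1a, were lower in CD5L KO by estimate. Trp53 measured 82.5, 85.1, 80.2, 87.9 and 83.1 CPM in the WT kidneys and 71.3, 73.3, 80.4 and 82.5 CPM in the CD5L KO kidneys given PBS. With rCD5L, Trp53 measured 77.1, 78.6, 79.6, 83.8 and 85.1 CPM in WT and 86.7, 86.2, 116, 55.2 and 75.4 CPM in CD5L KO kidneys. The highest and lowest values, 116 and 55.2 CPM, both came from CD5L KO kidneys given rCD5L, replicates 3 and 4. With PBS the log2 fold change was -0.13 (-0.25 to -0.0067, adjusted p = 0.165 by edgeR), and for rCD5L it was 0.14 in CD5L KO (-0.26 to 0.54), or 0.11 (-0.061 to 0.29) without these 2 kidneys, and -0.036 in WT (-0.13 to 0.061).

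Cdkn1a, whose promoter with the p53 decamer pair is printed near the start, encodes p21, which halts the cell cycle. Cdkn1a measured 78.8, 88.7, 62.1, 92.7 and 80.7 CPM in the WT kidneys and 58.1, 60.3, 71.5 and 79.6 CPM in the CD5L KO kidneys given PBS. With rCD5L, Cdkn1a measured 65.2, 77.8, 75.5, 71.4 and 69.8 CPM in WT and 84.03, 56.4, 101, 26.2 and 91.7 CPM in CD5L KO kidneys. With PBS the 2 lowest kidneys were CD5L KO and the 2 highest WT, and the groups overlapped. The log2 fold change was -0.27 (-0.52 to -0.0087, adjusted p = 0.174 by edgeR). Without WT replicate 3, at 62.1 CPM the lowest of its group, it was -0.35 and passed at an adjusted p of 0.037, in a range up to 0.778 over 18 alternatives. The kidney left out lay within the CD5L KO range, so this pass adds no support. With rCD5L the genotypes had close means, 71.9 ± 30.5 CPM in CD5L KO and 71.96 ± 4.93 CPM in WT (SD, n = 5 each), but the CD5L KO kidneys spread from 26.2 to 101 CPM. The log2 fold change there was -0.012 (-0.61 to 0.59), or 0.094 (-0.17 to 0.36) without replicates 3 and 4.

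Mdm2, the ubiquitin ligase that degrades p53 and is itself a p53 target, varied little between the PBS kidneys. Mdm2 measured 64.6, 61.7, 60.6, 61.7 and 67.7 CPM in the WT kidneys and 62.1, 63.6, 62.7 and 62.7 CPM in the CD5L KO kidneys given PBS. With rCD5L, Mdm2 measured 60.4, 54.5, 58.7, 58.5 and 60.3 CPM in WT and 60.8, 58.5, 46.7, 65.1 and 69.96 CPM in CD5L KO kidneys. The 4 CD5L KO kidneys given PBS lay between 62.1 and 63.6 CPM. Between genotypes given PBS the log2 fold change was -0.016 (-0.13 to 0.093, adjusted p = 0.873 by edgeR). In WT, the 5 values under rCD5L were just under the 5 with PBS, with 60.4 and 60.6 CPM as the nearest pair (-0.10, -0.20 to 0.0077, adjusted p = 0.353).

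Gadd45a, a stress gene that p53 induces, had the third smallest p for rCD5L in CD5L KO. Gadd45a measured 53.6, 50.4, 50.8, 45.4 and 44.96 CPM in the WT kidneys and 56.4, 50.6, 55.9 and 48.3 CPM in the CD5L KO kidneys given PBS. With rCD5L, Gadd45a measured 49.1, 50.4, 46.6, 54.6 and 42.2 CPM in WT and 51.3, 47.002, 41.1, 39.3 and 45.1 CPM in CD5L KO kidneys. The 2 lowest kidneys were again replicates 3 and 4 of CD5L KO given rCD5L. For rCD5L in CD5L KO the log2 fold change was -0.23 (-0.47 to 0.018, adjusted p = 0.897 by edgeR) and -0.14 (-0.31 to 0.042) without them. Gadd45b and Gadd45g, its relatives, had -0.026 and 0.017 between genotypes given PBS. The sestrins Sesn1 and Sesn2, which restrain mTORC1 under stress, had -0.13 and 0.020 there. Sesn1 was -0.34 between genotypes given rCD5L (-0.68 to -0.0048, adjusted p = 0.277), or -0.14 (-0.30 to 0.031) without replicates 3 and 4.

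Of the INK4 inhibitors, Cdkn2a, which encodes p16 and ARF and is used as a mark of senescence, had the largest fold change of any member. Cdkn2a measured 3.01, 1.56, 1.0002, 4.14 and 2.60 CPM in the WT kidneys and 1.58, 1.35, 2.23 and 1.04 CPM in the CD5L KO kidneys given PBS. With rCD5L, Cdkn2a measured 1.75, 3.83, 4.74, 3.58 and 2.24 CPM in WT and 4.81, 2.63, 5.38, 3.15 and 2.46 CPM in CD5L KO kidneys. In CD5L KO mice the 5 values under rCD5L exceeded the 4 under PBS, by 2.46 against 2.23 CPM at the nearest, with means of 3.68 ± 1.33 and 1.55 ± 0.505 CPM (SD). Its log2 fold change of 1.26 (0.54 to 1.98) did not pass (adjusted p = 0.897 by edgeR, 0.205 to 0.99999 over 19 alternatives). Without replicates 3 and 4 it was 1.09 (0.39 to 1.80, adjusted p = 0.397). The WT kidneys given PBS spread from 1.0 to 4.14 CPM, overlapping both CD5L KO groups, and rCD5L in WT gave 0.41 (-0.34 to 1.16). Cdkn2a has 2 annotated starts for its 2 products, and the counts do not tell them apart. Cdkn2b (p15), its neighbour, had log2 fold changes of 0.093, -0.30, -0.30 and 0.095 between genotypes given PBS, between genotypes given rCD5L, and for rCD5L in CD5L KO and in WT. Leaving out replicates 3 and 4 gave -0.22 between genotypes given rCD5L and -0.22 for rCD5L in CD5L KO.

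**Figure D4:**
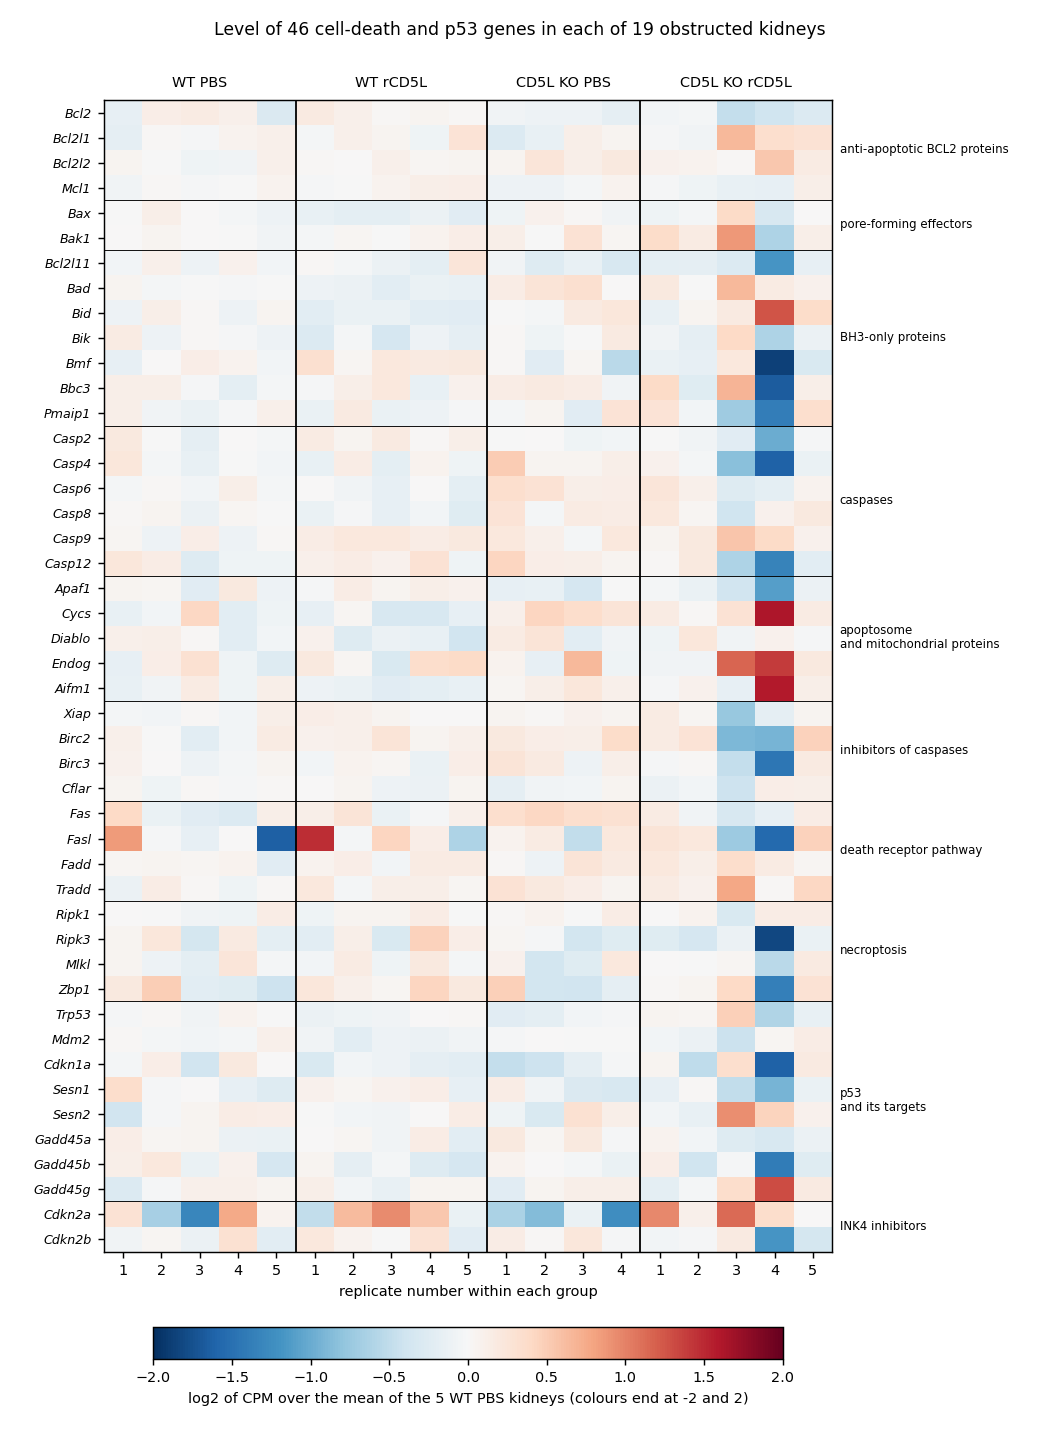
Log2 of each gene's CPM over the mean of the 5 WT kidneys given PBS, for the 46 tested genes (lines of the map, by role) in the 19 kidneys (columns, by group). Most of the map is pale, and the strong colours gather in replicates 3 and 4 of CD5L KO given rCD5L, with Cdkn2a and Fasl, the genes of lowest count, also varied in other groups.

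The 2 kidneys that stood apart were often the highest or lowest of all for these genes, as they were for genes in general. Without them the estimate turned sign for 24 of 46 members for rCD5L in CD5L KO (52.2%, against 35.2% of all genes tested), for 15 of 46 between genotypes given rCD5L (32.6%, against 22.2%) and for 11 of 46 in the interaction (23.9%, against 26.7%). Replicate 4 of CD5L KO given rCD5L was the highest or lowest of 19 kidneys for 31 of 46 members (67.4%, against 53.5% of all genes), and replicate 3 for 21 of 46 (45.7%, against 38.5%). Each other kidney was extreme for at most 7 members (15.2%). Compared with the range of the other 17 kidneys, replicate 4 lay above it for 11 members and below it for 26, and replicate 3 above for 15 and below for 18. Over all genes these shares were 27.9% and 34.7% for replicate 4 and 25.3% and 26.4% for replicate 3. Both lay outside on the same side for 18 members (39.1%, against 22.6% of all genes), among them Birc2, Birc3, Casp4, Casp12, Pmaip1 and Apaf1 below it and Endog, Sesn2, Bcl2l1 and Gadd45g above it. They lay outside on opposite sides for 8 members (17.4%, against 11.9%), Bax, Bak1, Bik, Bbc3, Cflar, Ripk1, Trp53 and Cdkn1a. In replicate 4, Cycs and Aifm1 were higher than the median of the other 17 by 1.60 and 1.61 on the log2 scale, Bid by 1.29 and Gadd45g by 1.254. Bmf was lower there by a log2 ratio of -1.89, Bbc3 by -1.79, Ripk3 by -1.69, Casp4 by -1.60 and Cdkn1a by -1.53. These 2 kidneys were singled out after their values were seen, and the part of the marker shifts in these values was not tested.

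**Figure D5:**
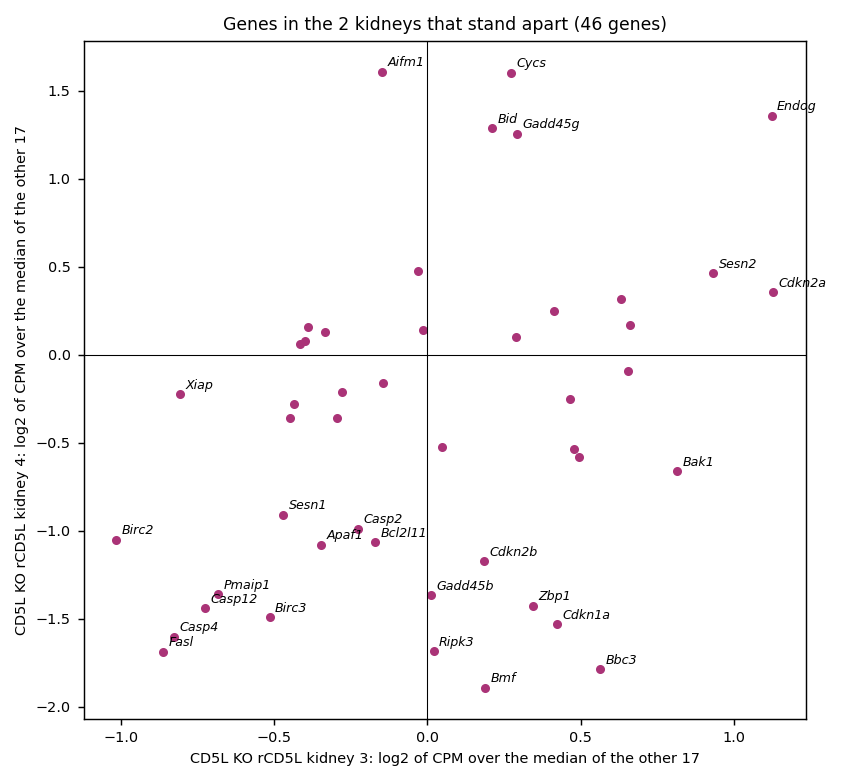
Log2 of CPM over the median of the other 17 kidneys for the 46 tested genes, in replicate 3 (horizontal axis) and replicate 4 (vertical axis) of the CD5L KO group given rCD5L; genes beyond 0.8 on either axis are named. Endog and Sesn2 lay above the other kidneys in both, Birc2, Casp4 and Birc3 below them in both, and Cdkn1a, Bbc3 and Bak1 lay on opposite sides.

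The spread within groups was otherwise small. The median coefficient of variation of the members was 8.56% in WT with PBS, 6.79% in WT with rCD5L and 8.77% in CD5L KO with PBS, against 11.1%, 10.2% and 10.99% over all genes tested. In CD5L KO with rCD5L it was 25.3% (28.4% over all genes), and 7.80% without replicates 3 and 4 (10.9% over all genes).

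Among other genes of the same pathways, the shares called were near or below the 10.5% of all genes tested. All 29 other p53 targets and partners were tested, and 1 was higher and 2 lower in CD5L KO than in WT given PBS (10.3%). Perp, a p53 target of cell junctions, was higher by a log2 fold change of 0.25 (adjusted p = 0.012 by edgeR). Plk2, a p53-induced kinase, was lower at -0.47 (adjusted p = 0.0199), and Trp53bp1, which acts in DNA break repair, at -0.33 (adjusted p = 0.00659). Of 16 tested of 17 other apoptosis genes none was called, and of 12 other necroptosis and ubiquitin genes 1 was (8.33%), Ninj1, which breaks the plasma membrane in lytic death, higher at 0.24 (adjusted p = 0.0186). No gene of these 3 lists was called in any other comparison or in the interaction by edgeR.

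Sums of tissue markers differed between some groups beside these genes. With PBS, the 5 injured tubule markers summed to 22348 to 27464 CPM in CD5L KO and 13879 to 20046 CPM in WT, without overlap. Most of each sum was Spp1, the 1 of them called, at 22217 ± 2294 CPM in CD5L KO and 15502 ± 2329 CPM in WT (SD). No other of the 5 exceeded 816 CPM in any kidney, so the separation of the sums is mainly that of Spp1. The 7 fibroblast and myofibroblast markers summed to 2463 to 3363 CPM in CD5L KO and 3507 to 5313 CPM in WT, also without overlap, with Col3a1, Col1a1, Acta2, Pdgfra and Pdgfrb called lower. The 6 macrophage markers overlapped, at 1663 to 2712 CPM and 1816 to 2400 CPM, although Csf1r was called lower. The 4 endothelial markers summed to 362 to 422 CPM in CD5L KO and 449 to 516 CPM in WT, without overlap, with Pecam1 and Cdh5 called lower. The 5 urothelial markers summed to 156 to 271 CPM in CD5L KO and 20.2 to 151 CPM in WT, also without overlap, with a median log2 fold change of 0.79 and none called. The 4 podocyte markers overlapped, at 360.2 to 444 CPM and 434 to 502 CPM, with Wt1 called lower. All 3 fat markers had estimates above 0 and all 5 proliferation markers below 0, none called. With rCD5L, the endothelial markers summed to 343 to 392 CPM in CD5L KO and 408 to 449 CPM in WT, and the podocyte markers to 286 to 433 CPM and 435 to 525 CPM, both without overlap, with and without CD5L KO replicates 3 and 4. The injured tubule sums, again mostly Spp1, overlapped between genotypes given rCD5L, but not without these 2 kidneys, when all CD5L KO kidneys were higher. With all kidneys, every one of the 8 proximal tubule (median log2 fold change 1.45), 6 distal nephron, 5 urothelial and 3 fat markers had an estimate above 0 there, and every one of the 9 T and NK cell, 6 macrophage, 7 fibroblast and 4 podocyte markers one below 0, none called. The proximal tubule sums were 1488, 1532, 2644, 12486 and 1651 CPM in CD5L KO, against 1209 to 1718 CPM in WT. The macrophage sums were 2343, 2453, 2106, 641 and 2279 CPM, against 2051 to 2429 CPM. Replicate 4 held the extreme value of both, and both overlapped with and without replicates 3 and 4. For rCD5L in WT, all 9 T and NK cell markers had estimates above 0 (median log2 fold change 0.43) and all 8 proximal tubule markers below 0 (-0.30), none called and with overlapping sums. The 4 epididymis markers tested and the 5 proliferation markers were above 0 there, and the 5 urothelial and 3 fat markers below 0, likewise. For rCD5L in CD5L KO, the 5 epididymis markers summed to 23.3 to 59.02 CPM against 7.87 to 21.3 CPM with PBS, without overlap and none called. All 8 proximal tubule (median 1.23), 6 distal nephron and 5 proliferation markers also had estimates above 0 there, and all 5 injured tubule, 5 urothelial and 4 podocyte markers below 0 (medians -0.28, -0.49 and -0.22), none called and with overlapping sums. Replicate 4 weighed heavily on these medians. Its proximal tubule sum was 12486 CPM, against 1488 to 2644 CPM in the others given rCD5L and 1215 to 2181 CPM with PBS. Its injured tubule sum was 9378 CPM, against 21041 to 24728 CPM in the others given rCD5L and 22348 to 27464 CPM with PBS. The sums of the proliferation markers did not overlap without replicates 3 and 4, and were then higher with rCD5L. The part of these shifts in the members' values was not tested in any comparison.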

How the data were processed

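Kidney RNA of 19 mice was sequenced in bulk. The authors deposited a table of raw counts per gene and a table of FPKM per gene. Per the submitters' processing notes, reads were handled with Trimmomatic, HISAT2, featureCounts and DESeq2 on GRCm38 (mm10). Their versions and the strand setting are not given in the sources used here, so genes that share exon bases with another gene are uncertain. No column lacked a sample (0 columns).

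The edgeR package (4.0.16, R 4.3.3) was fitted to the counts (quasi-likelihood test, TMM scaling, filterByExpr with a minimum count of 10, Benjamini-Hochberg adjustment over all genes tested, threshold 0.05), using only the groups compared, and all 4 groups for the interaction. CPM use the TMM-scaled library sizes. The deposited FPKM served for levels between genes and, with limma 3.58.1, as an alternative (pseudocounts 1 and 0.1). Other alternatives were DESeq2 1.42.0, RLE factors, 2 other filters, 1 fit over all 19 kidneys, a replicate block, an offset for gene length and leaving out kidneys. Scripts were tested on simulated data.

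Replicates are separate mice as far as the labels say. Chi-square values over degrees of freedom, for all 36 pairs within groups, were 7.13 to 340, so none was a repeated library. Members and lists were chosen with earlier results of these data known. All members are given by role. Those given in every kidney are Ripk1, Ripk3, Mlkl, Zbp1, Casp8, Fas, Bax, Trp53, Mdm2 and Cdkn1a, and the 3 with the smallest p in each comparison.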

Additional observations from a re-analysis of the deposited data

Results flagged for a closer look

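In 15 of 188 pairs of a gene and a group, the highest or lowest kidney lay apart from the others of its group by Dixon's test at the 95% level, which chance alone does in about 1 of 20 groups. Of these, 8 came from replicate 4 of CD5L KO given rCD5L. Its values were 72.2 CPM for Bcl2l2, 93.6 CPM for Bid, 419 CPM for Cycs, 231 CPM for Aifm1 and 105 CPM for Gadd45g, each the highest of its group. In the same kidney, Bcl2l11 at 15.5 CPM, Casp2 at 23.8 CPM and Ripk3 at 3.44 CPM were the lowest. Replicate 3 of that group measured 62.0 CPM for Bad, the highest.

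The other 6 were spread over 6 kidneys. Among CD5L KO kidneys given PBS, Bbc3 was lowest in replicate 4 at 20.4 CPM and Casp4 highest in replicate 1 at 49.1 CPM. Among WT kidneys given PBS, Cycs was highest in replicate 3 at 181 CPM and Fadd lowest in replicate 5 at 16.1 CPM. Among WT kidneys given rCD5L, Birc2 stood apart in replicate 3 at 165 CPM and Hrk, near the limit of detection, in replicate 5 at 0.319 CPM.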

How the results depend on the processing

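No member was called in any comparison, and 96 of the 104 counts under an alternative stayed at 0. Between genotypes given PBS the count was 1 with DESeq2 (Casp6, against 18.1% of all genes), 1 with an offset for gene length (Casp6, against 7.26%) and 1 with a replicate block (Birc2, against 12.1%), and 0 to 2 with 1 kidney left out, against 5.81% to 11.8% of all genes (Bad without CD5L KO replicate 4, Fas without WT replicate 1, Cdkn1a and Cycs without WT replicate 3). Between genotypes given rCD5L it was 2 of 46 (Bad and Bid) with all 19 kidneys in 1 fit, against 7% of 18454 genes, and 2 of 46 (Bmf and Casp8) without CD5L KO replicates 3 and 4, against 3.58% of 18012 genes, an alternative chosen after seeing the data. For 50 pairs of a gene and a comparison, log2 fold changes were recomputed under every alternative: 886 kept their direction and side of the threshold, 7 passed and 57 turned sign, in 19 pairs, whose reported log2 fold changes were at most 0.137 in size. For all 46 members, leaving out CD5L KO replicates 3 and 4 turned 24 estimates for rCD5L in CD5L KO, 15 between genotypes given rCD5L and 11 in the interaction, with reported sizes up to 0.52, 0.51 and 0.42. Deviations of replicates of equal number were weakly correlated at most (-0.18 to 0.18). This gave no clear sign that the numbers pair the mice, but it cannot exclude a pairing. Between genotypes given PBS the replicate block called 2132 genes, against 1850 without it, and it changed no other member's call. Over all genes, DESeq2 called 2622, 150, 10, 542 and 0 in the 5 fits, where edgeR called 1850, 0, 0, 0 and 0. With all 19 kidneys in 1 fit, 12 genes differed between genotypes given PBS and 1291 given rCD5L, without a filter 137 differed for rCD5L in WT, and without CD5L KO replicates 3 and 4 644 differed between genotypes given rCD5L. Causes of these changes were not tested. In each pass of a member with 1 kidney left out, that kidney lay within the range of the other group, so these passes add no support. With 1 kidney left out, log2 fold changes between genotypes given PBS turned sign, ranging over -0.047 to 0.015 for Bax, -0.033 to 0.0091 for Mdm2, -0.16 to 0.022 for Mlkl and -0.32 to 0.075 for Zbp1. With 1 kidney left out, log2 fold changes between genotypes given rCD5L turned sign, ranging over -0.16 to 0.20 for Cdkn1a, -0.014 to 0.13 for Mdm2, -0.064 to 0.062 for Ripk1 and -0.090 to 0.16 for Trp53. With 1 kidney left out, log2 fold changes for rCD5L in CD5L KO turned sign, ranging over -0.084 to 0.10 for Bax, -0.13 to 0.015 for Casp8, -0.049 to 0.32 for Cdkn1a, -0.10 to 0.035 for Mdm2, -0.059 to 0.13 for Mlkl, -0.065 to 0.050 for Ripk1, -0.0046 to 0.26 for Trp53 and -0.042 to 0.31 for Zbp1. With 1 kidney left out, log2 fold changes for rCD5L in WT turned sign, ranging over -0.044 to 0.15 for Ripk3. Reversed values under a replicate block were 0.0098 for Mdm2 between genotypes given PBS, -0.021 for Mlkl for rCD5L in CD5L KO, -0.078 for Zbp1 for rCD5L in CD5L KO and -0.13 for Cdkn1a for rCD5L in CD5L KO. Reversed values under an offset for gene length were 0.013 for Mdm2 between genotypes given PBS and 0.091 for Ripk1 between genotypes given rCD5L. Reversed values under DESeq2 were 0.0027 for Ripk1 between genotypes given rCD5L and 0.0044 for Cdkn1a between genotypes given rCD5L. Reversed values under RLE factors were 0.0034 for Ripk1 between genotypes given rCD5L and 0.0052 for Cdkn1a between genotypes given rCD5L. Reversed values under all 19 kidneys in 1 fit were 0.0037 for Ripk1 between genotypes given rCD5L and 0.015 for Cdkn1a between genotypes given rCD5L. Reversed values under limma on FPKM (pseudocount 1) were -0.0050 for Trp53 between genotypes given rCD5L and -0.015 for Cdkn1a for rCD5L in CD5L KO. Reversed values under limma on FPKM (pseudocount 0.1) were -0.0075 for Trp53 between genotypes given rCD5L and -0.028 for Cdkn1a for rCD5L in CD5L KO. Reversed values under CD5L KO replicates 3 and 4 given rCD5L left out were 0.026 for Ripk1 between genotypes given rCD5L, 0.0075 for Mlkl between genotypes given rCD5L, 0.0023 for Fas between genotypes given rCD5L, 0.094 for Cdkn1a between genotypes given rCD5L, 0.020 for Ripk1 for rCD5L in CD5L KO, 0.022 for Casp8 for rCD5L in CD5L KO, -0.027 for Bax for rCD5L in CD5L KO and 0.014 for Mdm2 for rCD5L in CD5L KO.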
